A study of Platichthys stellatus with 16 samples.

Results

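MROH1 and SLMO2 are described here in males and females of the starry flounder, Platichthys stellatus, a flatfish whose left- and right-eyed forms both occur. Members were the assembled genes whose closest Swiss-Prot protein, or failing that the first KEGG ortholog name, was MROH1 or SLMO2. The rule found 3 of the 16270 assembled genes in the deposited table, 1 annotated as MROH1 and 2 as SLMO2. The pair was chosen by its levels in these libraries, since both names stood higher in male than in female brain, liver and muscle. Values of that sex difference are therefore a description with no test. The gonad and the comparisons between tissues were tested.

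The study sequenced RNA from brain, liver, muscle and gonad of 3-year-old fish. The 8 groups were male brain, female brain, male liver, female liver, male muscle, female muscle, male gonad and female gonad, with 2 libraries each and 16 in all. No treatment or genotype is named in the labels. The series text names pituitary where the sample labels name muscle, and the sample labels were followed. The labels do not say which fish gave which library, so p-values reflect only how far these libraries vary, which may be technical.

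MROH1 is a long protein built of HEAT repeats, paired helices that stack into a flexible rod. In the amoeba Dictyostelium and in mammalian cells it has been placed on lysosomes, where actin made through the WASH complex positions it. SLMO2, also called PRELID3B, belongs to the PRELI family of small proteins of the mitochondrial intermembrane space. In yeast and human cells, members of that family pair with the small protein TRIAP1 (Mdm35 in yeast) and carry phospholipids between the mitochondrial membranes. Neither gene is a textbook marker of sex.

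The 3 members differed in how well they matched their annotated protein. MROH1 (TRINITY_DN147406_c2_g1) was 5514 bases long and aligned to human MROH1 with a score of 2728 in the authors' annotation. Its closest nucleotide entry was heatr7a, the older name of MROH1, of the Nile tilapia. The shorter SLMO2 copy (TRINITY_DN134037_c2_g1) was 1088 bases long and aligned to human SLMO2 with a score of 805. The longer SLMO2 copy (TRINITY_DN141634_c0_g1) was 5396 bases long and aligned to pig SLMO2 with a score of 327, and its closest protein entry was an SLMO2-like protein of the bicolor damselfish. The closest nucleotide entry was SLMO2-like for both, with a score of 167 for the longer and 522 for the shorter copy. Both copies carried the same orthologous group, a family of intramitochondrial sorting proteins. They are referred to below by their length, as the 5396-base and the 1088-base copy. Reads that fit both copies could have been split between them, and no sequence was used here to measure how alike they are.

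The table lists 7178217 to 12972574 estimated counts in the male and 5134221 to 11592256 in the female libraries. Liver marker genes, such as hemopexin and fibrinogen, summed to 39621 FPKM or more in each liver library and to 160 or less elsewhere. Brain markers summed to 516 or more in brain and 102 or less elsewhere, and skeletal muscle markers to 50962 or more in muscle and 1270 or less elsewhere. For the gonads only odf3 of 10 testis symbols and CD9 of 9 ovary symbols were in the table. Odf3, a sperm tail protein, stood at 47.8 to 50.3 FPKM in male and 51.4 to 53.0 in female gonad, so it does not tell testis from ovary here. The 2 CD9 features summed to 206 to 223 FPKM in female gonad and 47.3 to 63.3 in male gonad. In brain they summed to 253 to 631 in males and 700 to 763 in females, so CD9 is not particular to ovary. The yolk precursor gene vtg1 stood at 168 and 120 FPKM in male liver and at 24712 and 10369 in female liver.

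MROH1 was low in every female library and high in every male one. Levels are the authors' FPKM, fragments scaled to gene length and to library size. The male brains had 40.9 and 32.6 FPKM of MROH1, against 1.75 and 2.49 in the female brains. The male livers had 35.7 and 40.4 FPKM, against 1.86 and 4.24 in the female livers. The male muscles had 15.4 and 39.9 FPKM, against 1.51 and 2.41 in the female muscles. The groups did not overlap in these 3 tissues, as was so, with males above, for 48.7%, 28.1% and 43.1% of all features in brain, liver and muscle. The lowest male library lay 13.1, 8.42 and 6.39 times above the highest female library in brain, liver and muscle. Fitted on counts, the log2 difference, male minus female, was 3.77 in brain, 3.42 in liver and 3.99 in muscle, or 13.7-fold, 10.7-fold and 15.9-fold. In bulk tissue fewer cells of a type and less RNA per cell cannot be told apart.

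The 5396-base copy of SLMO2 had the same arrangement, with more spread in muscle. Its level was 17.0 and 15.2 FPKM in male brain, against 2.06 and 2.75 in female brain. Its level in male liver was 24.5 and 14.5 FPKM, against 0.970 and 2.11 in female liver. Male muscle had 58.4 and 23.7 FPKM, against 0.400 and 2.35 in female muscle. The groups did not overlap in these tissues, as was so, with males above, for 48.7%, 28.1% and 43.1% of all features. The log2 difference was 2.20 in brain, 3.54 in liver and 4.34 in muscle. The value in muscle leaned on single libraries: it was 6.15 without female muscle 2, 3.05 without male muscle 1, 3.56 without female muscle 1 and 5.06 without male muscle 2. Female muscle 1 held 10 counts of this copy, the fewest of any library. The value in liver was 2.95 without male liver 1. Scaled by recovered total fragments, an estimate of each library's whole read total, the median of all features moved by 0.58 in brain, 0.23 in liver and 0.68 in muscle toward males, and no member changed direction there.

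The 1088-base copy differed less between the sexes. It had 17.2 and 18.4 FPKM in male brain, against 4.31 and 5.67 in female brain. It had 10.4 and 15.0 FPKM in male muscle, against 1.64 and 2.84 in female muscle, and in both tissues the groups were apart. Males lay above females in this way for 48.7% of all features in brain and 43.1% in muscle. Liver was the exception, with 3.75 and 7.49 FPKM in males and 1.48 and 4.29 in females, and there the groups overlapped. The log2 difference was 1.23 in brain, 1.78 in muscle and 0.75 in liver, the last with 1.45 when female liver 2 was left out.

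**Figure D1:**
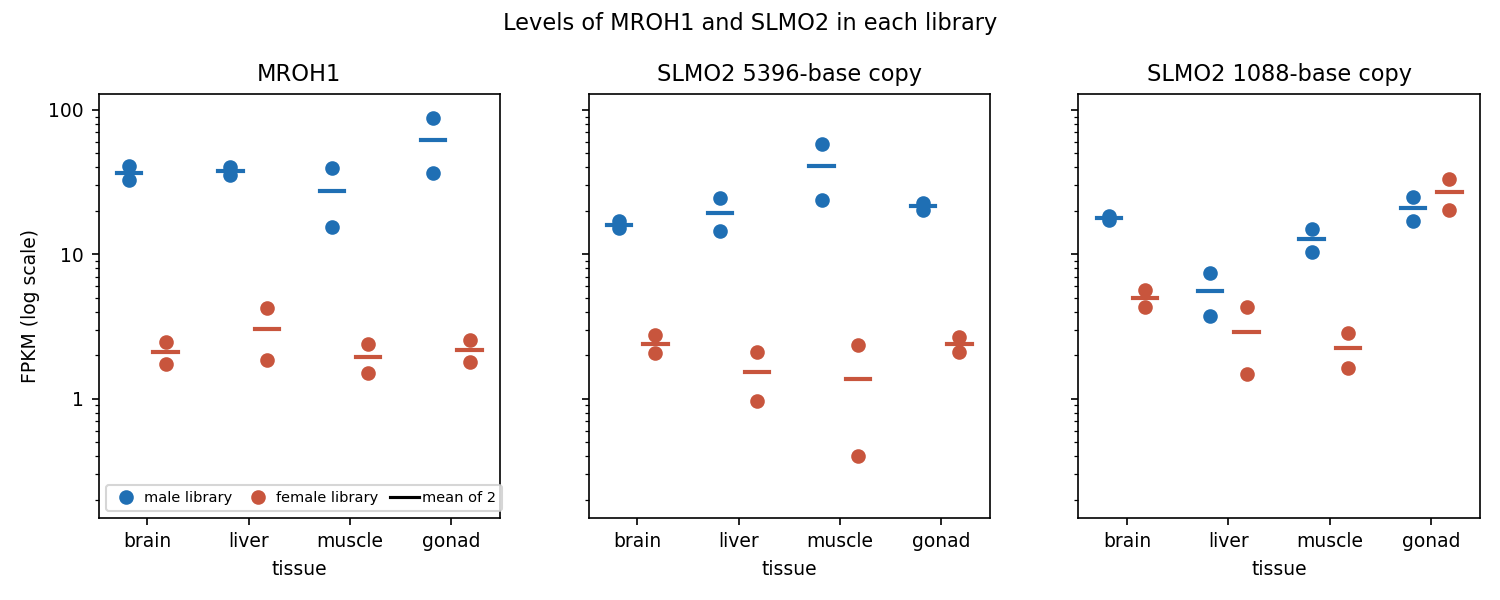
FPKM on a log axis of MROH1 and both SLMO2 copies in each of the 16 libraries, by tissue, with male libraries (blue) left of female ones (red) and a bar at the mean of 2. MROH1 and the 5396-base copy stand at 14.5 FPKM or more in each male and at 4.24 or less in each female library, while the 1088-base copy overlaps between the sexes in liver and gonad.

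Among all features, the average difference over brain, liver and muscle, male minus female, ranked first for MROH1 (3.73) and second for the 5396-base copy (3.36), and 1006th of 16270 for the 1088-base copy (1.25). These ranks restate how the members were chosen. Within single tissues MROH1 ranked 54th in brain, 56th in liver and 11th in muscle, and the 5396-base copy 1025th, 48th and 7th. In each of brain, liver and muscle both males lay above both females for 2 of the 3 members, against 9.70% of all features by FPKM and 4.56% by CPM, the counts scaled to library size with TMM. Since the choice of members used these tissues, nothing is read from that count.

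Some properties of the somatic libraries moved with sex beside these values. The hemoglobin chains hbaa and hbb1, the 2 of 6 blood symbols in the table, summed to 33.6 to 872 FPKM in male brain, against 7143 to 17408 in female brain. Their sum was 118 to 175 FPKM in male liver, against 2799 to 9873 in female liver, and 123 to 693 in male muscle, against 2909 to 8106 in female muscle. Brain markers summed to 516 to 566 FPKM in male brain, against 1664 to 2660 in female brain, and muscle markers to 50962 to 104311 in male muscle, against 298818 to 323051 in female muscle. TMM scaling factors were 1.629 and 1.688 in male brain, against 0.791 and 0.9781 in female brain. In gonad the hemoglobin sums were 47.3 to 70.2 FPKM in males and 42.4 to 330 in females, with overlap, and the TMM factors were 1.833 and 1.845 in males, against 1.134 and 1.127 in females. The part of these contents and of scaling in the sex difference of the members was not tested.

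The gonad gave the sex comparison that the choice of members did not use. Its libraries may come from the same fish as the somatic ones, so it may not be independent of that choice. MROH1 stood at 36.7 and 87.7 FPKM in male gonad, against 2.55 and 1.81 in female gonad. The groups did not overlap, as was so, with males above, for 52.2% of all features. By counts it was 17.5-fold higher in male gonad (log2 difference 4.13 ± 0.49 SE, edgeR adjusted p = 6.4e-05). This call stood with each gonad library left out and under each other setting, with adjusted p from 1.7e-16 to 0.0017. Without male gonad 2, the higher of the male libraries, the log2 difference was 3.37, and with recovered totals it was 4.82.

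The 5396-base copy of SLMO2 stood at 22.7 and 20.4 FPKM in male gonad, against 2.70 and 2.10 in female gonad, again without overlap. It was 5.76-fold higher in male gonad (log2 difference 2.53 ± 0.70, edgeR adjusted p = 0.01). Without female gonad 1 (2.72, adjusted p = 0.05) or female gonad 2 (2.38, adjusted p = 0.074) it no longer passed, and its adjusted p ran from 0.0011 to 0.074 over all settings. Scaling by recovered total fragments moved the value to 3.23, a shift close to that of the median of all features.

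The 1088-base copy did not share this direction. It stood at 17.1 and 25.0 FPKM in male gonad, against 33.4 and 20.4 in female gonad, and the groups overlapped. The log2 difference was -1.01 ± 0.48 (edgeR adjusted p = 0.097). Over the settings other than a library left out, it ran from -1.07 to -0.31. DESeq2 put it just past the threshold (-1.06, adjusted p = 0.048), while over all settings adjusted p ran from 0.048 to 0.66. Whether its sex difference in gonad departs from that in brain, liver and muscle was not tested, since those tissues chose the members.

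So 2 of the 3 members passed toward males in gonad, against 23.8% of all features. Gonad differed widely between the sexes: 47.1% of all features (7661) passed in either direction, and 4905 did without male gonad 2. With recovered totals the split of higher to lower features was 5672 to 1881, in place of 3866 to 3795. By size of the difference MROH1 ranked 325th and the 5396-base copy 1678th of 16270 toward males in gonad. The 4 leukocyte features, among them ptprc and CD74, summed to 547 to 4098 FPKM in male gonad, against 53.5 to 157 in female gonad. In muscle their sum was 260 to 1273 FPKM in males, against 210 to 224 in females. The sexes overlapped in brain, at 759 to 1519 FPKM in males and 1434 to 2242 in females. They also overlapped in liver, at 831 to 1900 FPKM in males and 958 to 7726 in females. Their part in these differences was not tested.

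**Figure D2:**
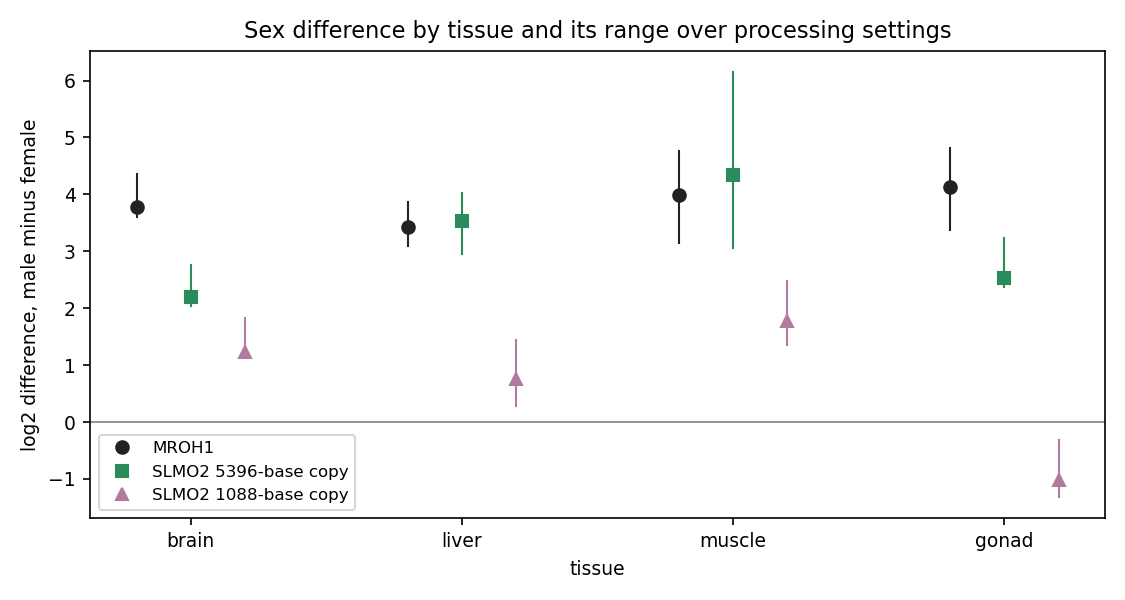
Log2 difference, male minus female, of each member by tissue (points, edgeR with TMM scaling), with lines over the lowest and highest value when a library of that tissue was left out or another setting was used. MROH1 and the 5396-base copy stay above 2 in all 4 tissues, and the 1088-base copy is at -1.01 in gonad.

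Taking the 4 tissues together, all 8 male libraries lay above all 8 female libraries for MROH1 and for the 5396-base copy. This held for 113 features in all by FPKM (0.695%), and for 27 by CPM (0.166%). The reverse held for 0 features by FPKM and 36 by CPM (0.221%). By FPKM the 2 features with the widest gap were the 5396-base copy, at 5.27 times between the lowest male (14.5) and the highest female library (2.75), and MROH1 at 3.63 times. By CPM they were MROH1 at 2.74 times and the 5396-base copy at 1.98 times. The next feature by FPKM was SOCS3, a feedback inhibitor of cytokine receptors, at 2.81 times (22.7 against 8.06 FPKM), a gene singled out after its values were seen. By CPM SOCS3 did not separate the sexes: on the log2 scale male gonad 1 (4.79) lay below female muscle 2 (5.31). Most of these libraries also chose the members, so this too is a description.

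**Figure D3:**
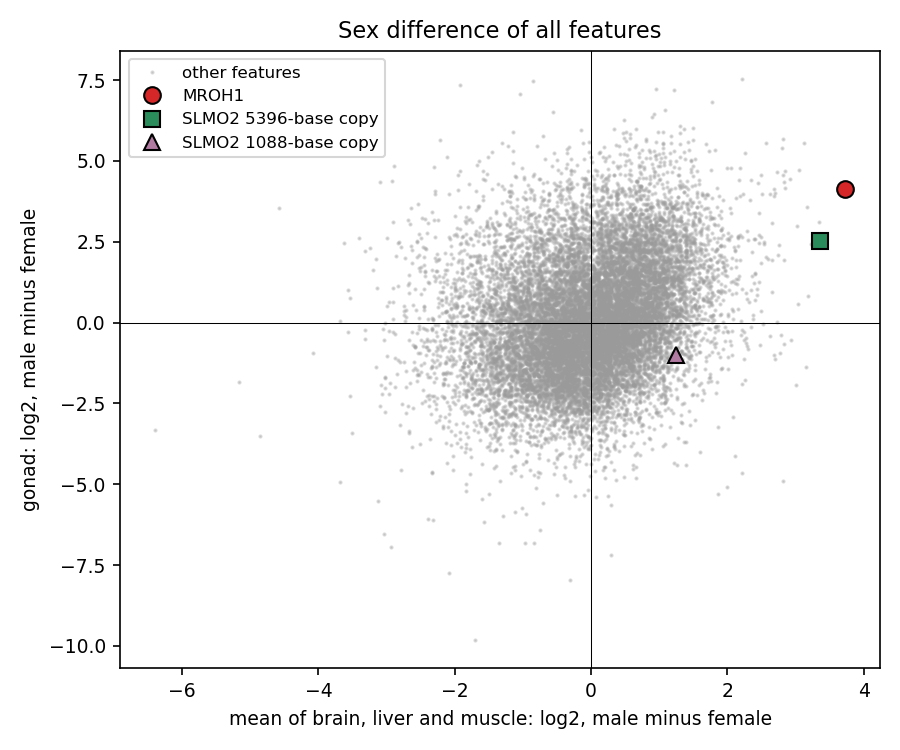
Log2 difference, male minus female, of each of the 16270 features in gonad against its average over brain, liver and muscle (both edgeR, TMM scaling). MROH1 (3.73, 4.13) and the 5396-base copy of SLMO2 (3.36, 2.53) lie at the right edge, and the 1088-base copy (1.25, -1.01) lies within the cloud.

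Ordered by FPKM, the 4 male groups of MROH1 came before the 4 female groups. The order was male gonad (62.2 ± 36.1 FPKM, mean ± SD, n = 2), male liver (38.0 ± 3.28), male brain (36.7 ± 5.93), male muscle (27.6 ± 17.3), female liver (3.05 ± 1.68), female gonad (2.18 ± 0.523), female brain (2.12 ± 0.523) and female muscle (1.96 ± 0.636). The only neighbours in this order whose libraries did not overlap were male muscle and female liver. By CPM male liver came first (373 and 350), above male muscle (213 ± 73.4), male gonad (198 ± 115) and male brain (170 ± 35.8), and both its libraries lay above every other library. Female liver (33.6 ± 12.3 CPM) then lay above the other female groups without overlap. The share of all features with such gaps between neighbouring groups or between tissues was not counted, so nothing is read from these gaps. Against the FPKM of all features of a group, the MROH1 level was at the 79.0th percentile in male brain and the 9.88th in female brain.

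For the 5396-base copy the order by FPKM was male muscle (41.1 ± 24.6 FPKM), male gonad (21.5 ± 1.63), male liver (19.5 ± 7.09), male brain (16.1 ± 1.20), female brain (2.41 ± 0.488), female gonad (2.40 ± 0.424), female liver (1.54 ± 0.806) and female muscle (1.38 ± 1.38). Male muscle lay above male gonad without overlap, and male brain above female brain. The other neighbours overlapped. As for MROH1, nothing is read from these gaps. By FPKM muscle was the highest male and the lowest female group of this copy. By CPM the mean in muscle was the highest of both sexes, at 197 ± 165 in male and 9.70 ± 9.82 in female muscle. Female muscle held both the lowest and the highest female library, at 2.76 and 16.6 CPM. Among males, liver (100 ± 47.8) came next, before brain (38.8 ± 3.16) and gonad (34.2 ± 1.86).

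The 1088-base copy mixed the sexes. Its order by FPKM was female gonad (26.9 ± 9.23 FPKM), male gonad (21.0 ± 5.59), male brain (17.8 ± 0.813), male muscle (12.7 ± 3.23), male liver (5.62 ± 2.64), female brain (4.99 ± 0.962), female liver (2.88 ± 1.99) and female muscle (2.24 ± 0.849). Neighbours without overlap were male brain and male muscle, male muscle and male liver, and female brain and female liver. Here too nothing is read from the gaps. By CPM female gonad was also first (24.2 ± 8.53), followed by male muscle (18.4 ± 1.65), male brain (15.1 ± 0.449), male gonad (9.72 and 14.3) and male liver (9.66 ± 3.60).

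The tissues were then compared as an average over both sexes, a contrast that the choice of members did not use. The 1088-base copy was higher in gonad than in the mean of brain, liver and muscle, by a log2 difference of 0.92 ± 0.27 (edgeR adjusted p = 0.0086), against 29.5% of all features that passed toward gonad and 60.2% in either direction. With recovered totals 9496 features passed toward gonad and 1587 away from it, in place of 4799 and 4992. By limma on log2(FPKM + 1) it was 1.81 (adjusted p = 5.1e-05), where the median of all features stood at 0.92. It no longer passed without female gonad 1 (0.70, adjusted p = 0.079) or male gonad 2 (0.75, adjusted p = 0.064). By CPM the sexes differed in this step of the 1088-base copy. Female gonad (24.2 ± 8.53 CPM) lay above female brain (6.42), liver (5.71) and muscle (5.36). Male gonad (9.72 and 14.3 CPM) lay below male brain (14.8 and 15.4) and muscle (19.5 and 17.2), and overlapped male liver (7.11 and 12.2). By FPKM male gonad (21.0) had the highest male mean. The step within each sex was not tested. The 5396-base copy was lower in gonad at the threshold (-1.00 ± 0.41, adjusted p = 0.049), against 30.7% of all features. That call ended with any of 12 of the 16 libraries left out, and the value turned to 0.13 when libraries were scaled by recovered total fragments (adjusted p = 0.76). MROH1 did not pass (-0.45 ± 0.26, adjusted p = 0.15). Without male gonad 2 it passed as lower in gonad (-0.85, adjusted p = 0.021), and scaling by recovered totals gave 0.62 (adjusted p = 0.067).

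Between somatic tissues, MROH1 took up a larger share of the scaled counts in liver than in brain. Its CPM was 373 and 350 in male liver, against 195 and 144 in male brain, and 24.9 and 42.4 in female liver, against 13.1 and 11.7 in female brain. The log2 difference was 1.27 ± 0.32 (edgeR adjusted p = 0.006), with 21.0% of all features past the threshold toward liver, 18.8% toward brain and 39.7% in all. MROH1 was also lower in muscle than in liver (-1.05 ± 0.32, adjusted p = 0.018), with 19.5% of all features past it toward liver, 18.5% toward muscle and 38.0% in all. The edgeR call ended without female liver 2 (-0.83), female muscle 1 (-0.96) or male muscle 1 (-0.89). By limma on log2(FPKM + 1) and log2(FPKM + 0.1) the difference did not pass either (-0.50 and -0.57, adjusted p = 0.34 and 0.32).

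The step from brain to liver depends on scaling. With recovered total fragments it was 0.43 (adjusted p = 0.32), while the median of all features stood at -0.83 in place of 0.03, and 1311 features passed toward liver and 7507 toward brain, in place of 3411 and 3053. Muscle against brain moved likewise, to 1372 features toward muscle and 7414 toward brain, in place of 3309 and 3505. By FPKM, MROH1 in male liver and male brain overlapped, as given above. MROH1 did not pass between muscle and brain (0.22 ± 0.32, adjusted p = 0.61, with 41.9% of all features past the threshold in either direction). Neither SLMO2 copy passed in any of the 3 comparisons between somatic tissues. The nearest was the 5396-base copy in muscle against brain (1.26 ± 0.49, adjusted p = 0.052), which was 0.36 without female muscle 2 and 0.61 without male muscle 1. It passed without female muscle 1 (1.66, adjusted p = 0.012) or male muscle 2 (1.60, adjusted p = 0.013), and by DESeq2 (1.34, adjusted p = 0.021). It was 0.32 with recovered totals. With those totals the 1088-base copy passed as lower in liver than in brain (-1.22, adjusted p = 0.018, against -0.40 ± 0.35 and 0.39 with TMM).

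The copies of SLMO2 also changed in their proportion to each other. The FPKM of the 5396-base copy over that of the 1088-base copy was 0.983 and 0.829 in male brain, against 0.478 and 0.485 in female brain. It was 6.53 and 1.93 in male liver, against 0.655 and 0.492 in female liver. In muscle it was 5.61 and 1.58 in males, against 0.244 and 0.827 in females, and in gonad 1.33 and 0.816 in males, against 0.0808 and 0.103 in females. The ratio was higher in each male than in each female library of the same tissue. In brain, liver and muscle the choice of members used these levels, so nothing is read from it there. How many other pairs of features have such a gap in gonad was not counted, so the ratio there is a description. By these ratios female gonad was the group in which the 1088-base copy most exceeded the other.

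Within a sex the members did not track each other closely. Over the 8 male libraries, Pearson's r of log2 CPM between MROH1 and the 5396-base copy was 0.19 (Spearman's rho 0.31), and -0.21 without the 2 libraries farthest from the MROH1 median. Over the 8 female libraries it was 0.38 (rho 0.60), and 0.61 without the 2 farthest. Between the SLMO2 copies r was 0.12 in males (rho 0.29) and 0.13 in females (rho 0.24). Libraries of different tissues may share a fish, and the points share their tissues, so these are descriptions. Male muscle is an example: MROH1 was higher in male muscle 2 and the 5396-base copy in male muscle 1.

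The counts behind MROH1 and the 5396-base copy were ample in males and thin in some females. Those of the 1088-base copy were thin in some libraries of both sexes. MROH1 had 850 to 6685 counts in male and 42 to 220 in female libraries. The 5396-base copy had 499 to 1653 in male and 10 to 90 in female libraries, and the 1088-base copy 48 to 342 in male and 13 to 371 in female libraries. The effective length implied by count, FPKM and recovered total was 4356 to 4751 bases for MROH1 in most libraries. It was 3326 in female brain 2, and 2878 and 2121 in female muscle, where FPKM therefore gives MROH1 a higher level than its counts alone would. For the 5396-base copy it was 2126 to 2587 bases, well under its listed length, and for the 1088-base copy 800 to 847.

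The features most like each member over the 16 libraries were taken by Pearson's r of log2 CPM. For MROH1 they were WDR20 (r = 0.91), a WD repeat protein that binds deubiquitinases, PIKFYVE (0.90), a lipid kinase of endosomes, MED13L (0.89), a Mediator subunit, GAK (0.89), a kinase of clathrin uncoating, and LYST (0.89), a regulator of lysosome size. For the 5396-base copy they were MROH1 itself (0.87), SOCS3 (0.86), the autophagy lipid transfer protein Atg2b (0.83), the histone demethylase KDM6B (0.82) and the dynein regulator ndel1b (0.81). For the 1088-base copy they were the proteasome subunit psmd11a (0.85), the glutathione synthesis enzyme GCLC (0.85), the cytosolic chaperone adaptor Tomm34 (0.84), the RNA decay factor Smg5 (0.84) and wdr37 (0.84).

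The first 2 sets carry the sex difference that chose the members. Within a sex r was lower for each of their features, except for Atg2b in males. Within the 8 male libraries r was 0.80 for WDR20 and GAK with MROH1 and 0.58 for PIKFYVE. With the 5396-base copy it was 0.87 for Atg2b but 0.05 for ndel1b. For the 1088-base copy the 5 features had r of 0.87 to 0.95 in the 8 female libraries and 0.44 to 0.76 in the 8 male libraries. The sets also depend on the measure: with log2(FPKM + 1), 1, 3 and 2 of the 5 features were shared for MROH1, the 5396-base and the 1088-base copy, and with Spearman's rho 2, 0 and 1.

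**Figure D4:**
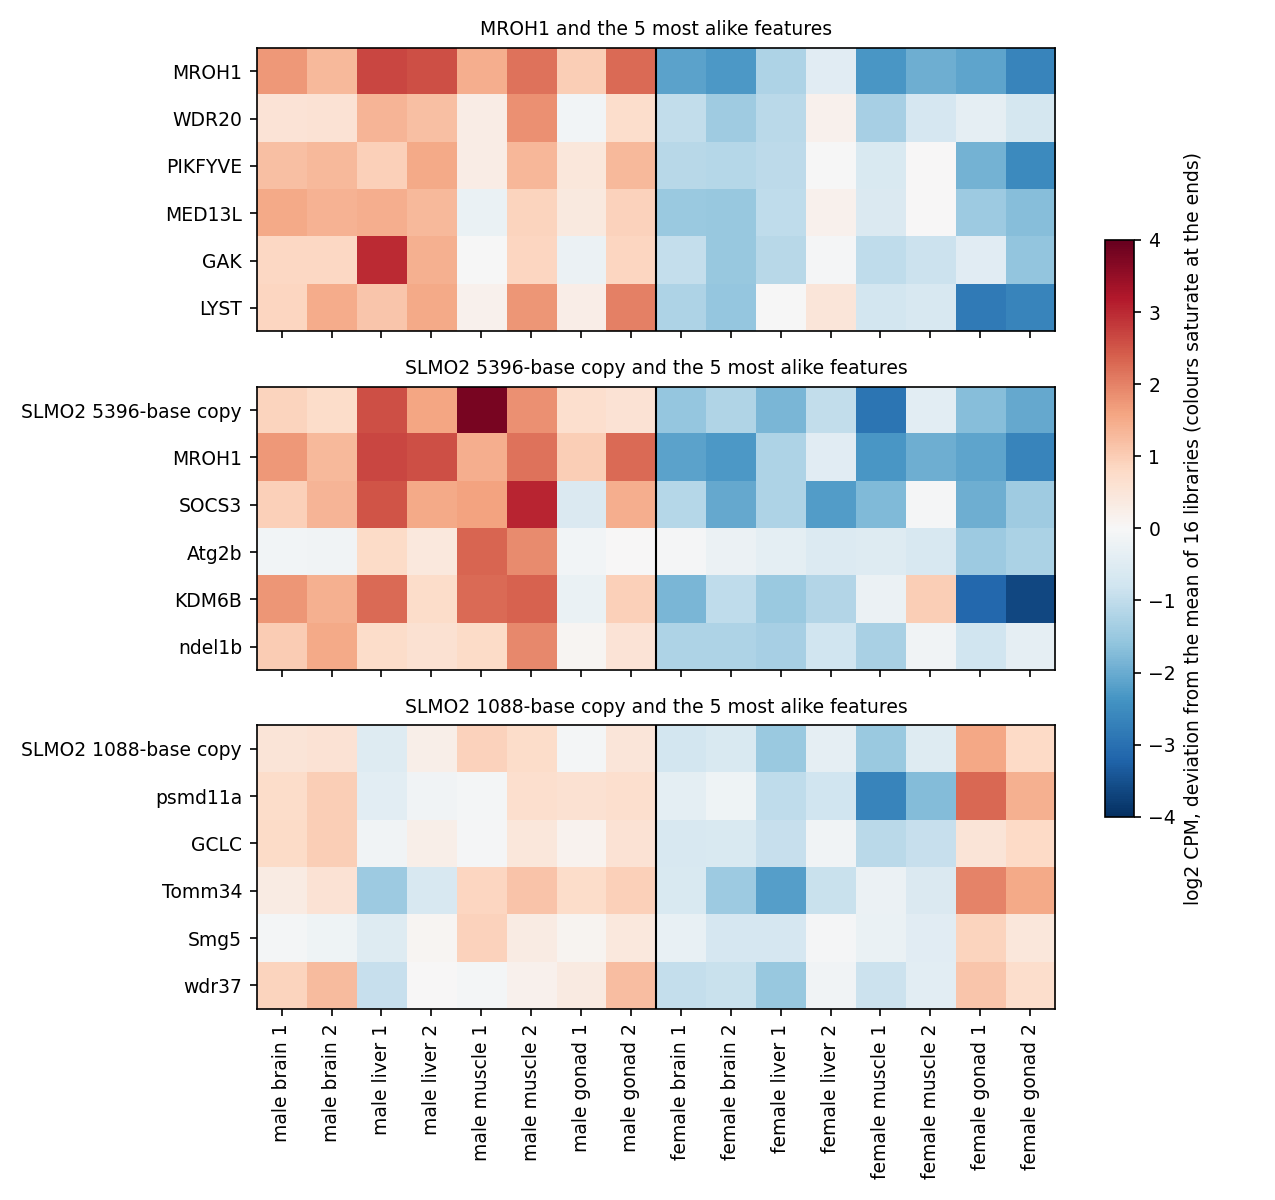
Log2 CPM of each member and its 5 most alike named features in the 16 libraries, as the deviation from the mean of the libraries, with male libraries left and female ones right of the line. Rows of MROH1 and the 5396-base copy are mostly high in male and low in female libraries, while those of the 1088-base copy are high in female gonad as well.

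Between the sexes, 5 lists holding 132 features were compared, drawn from processes or protein families near those of SLMO2 or MROH1. Being on a list does not mean that a gene acts with either. The closest relative of SLMO2 in the table was Prelid1, which carries phosphatidic acid between the mitochondrial membranes. Prelid1 stood at 131 ± 18.5 FPKM in male gonad, against 58.5 ± 0.912 in female gonad, and at 18.2 ± 4.11 in male muscle, against 4.90 ± 0.332 in female muscle. By edgeR it passed in no tissue, with adjusted p of 0.2 in gonad, 0.054 in muscle, 0.27 in brain and 0.86 in liver. TRIAP1 and PRELID3A matched no feature.

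The list of mitochondrial phospholipid transport and synthesis had 31 features without the members. In brain 12 were higher in males and 2 in females (median log2 difference 0.65, against -0.12 over all features, of which 18.4% passed toward males and 21.4% toward females). A feature of CDS2 and that of Cds1, which make the phospholipid precursor CDP-diacylglycerol, stood at 67.5 ± 10.8 and 30.6 ± 10.5 FPKM in male brain. In female brain they stood at 2.96 ± 0.665 and 1.36 ± 0.969 FPKM (log2 difference 3.92 ± 0.68 and 3.98 ± 0.64, edgeR adjusted p = 0.0035 and 0.0028). The other CDS2 feature differed less, at 53.0 ± 1.32 FPKM in male and 16.7 ± 6.91 in female brain (1.16 ± 0.40, edgeR adjusted p = 0.034). The phosphatidylserine synthase ptdss2 was also higher in male brain (2.26 ± 0.53), as was 1 of 2 features each of the bridge-like lipid transporter VPS13D (3.58 ± 0.73, adjusted p = 0.0052) and the cardiolipin remodelling enzyme lclat1 (2.33 ± 0.55). The other VPS13D feature (0.65 ± 0.29, edgeR adjusted p = 0.087) and the other lclat1 feature (-0.47 ± 0.40, edgeR adjusted p = 0.36) did not pass. The 2 that were lower in male brain were dnajc19 (-1.92 ± 0.53, edgeR adjusted p = 0.014) and a feature of Vps13a (-1.36 ± 0.38, edgeR adjusted p = 0.016). In gonad 12 (38.7%) were higher in males and 9 (29.0%) in females, against 23.8% and 23.3% of all features, or 14 and 2 with recovered totals.

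Another feature of Vps13a averaged 42.5 ± 4.99 FPKM in male gonad, against 1.36 ± 0.0212 in female gonad (4.29 ± 0.51, edgeR adjusted p = 6.3e-05), and Cds1 was higher there too (3.55 ± 0.64). The Vps13a feature that was lower in male brain was higher in male gonad (1.74 ± 0.39, edgeR adjusted p = 0.0028). Neither CDS2 feature passed in gonad (0.20 ± 0.39 and 0.51 ± 0.60). Both features of CRLS1, the cardiolipin synthase, were lower in male gonad (-1.84 ± 0.58 and -2.14 ± 0.62). In muscle 1 of the 31 passed, STOML2, a cardiolipin-binding protein of the inner membrane, higher in males (115 ± 3.76 against 14.5 ± 7.47 FPKM, 2.28 ± 0.43, adjusted p = 0.015), with 1.75% of all features past the threshold toward males.

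Among 9 features of import into the mitochondrial intermembrane space, the route of small twin-cysteine proteins such as TRIAP1, 7 were lower in male gonad and 0 were higher, against 23.3% of all features higher in females. The copper chaperone COX17 stood at 113 ± 17.4 FPKM in male gonad, against 5285 ± 478 in female gonad (-5.98 ± 0.47, edgeR adjusted p = 1.1e-05). In male brain 3 of the 9 (33.3%) were lower, COX17, COX19 and timm9, against 21.4% of all features higher in females. In muscle both timm8a features (22.2%) were higher in males (2.43 ± 0.41 and 2.29 ± 0.47), against 1.75% of all features. With recovered totals 5 of the 9 were lower in male gonad, 2 were lower in male brain and 4 were higher in male muscle.

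The WASH complex and its actin partners had 28 features. In gonad 7 (25.0%) were higher in males and 4 (14.3%) in females, against 23.8% and 23.3% of all features, so the count toward males was near that of all features. With recovered totals the counts were 8 and 0. The largest difference was in 1 of 2 features of ARPC5, a subunit of the Arp2/3 complex (3.23 ± 0.67, edgeR adjusted p = 0.0019), and the other did not pass (-0.12 ± 0.46). KIAA1033, a WASH subunit, was higher in male gonad (1.23 ± 0.37, edgeR adjusted p = 0.015) and ccdc53, another subunit, lower (-1.19 ± 0.43, adjusted p = 0.034). In brain 2 (7.14%) were higher in males and 2 in females, below the shares of all features.

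Of 54 lysosome features 10 (18.5%) were higher in male and 3 (5.56%) in female brain, or 15 and 1 with recovered totals. The share toward males was that of all features (18.4%). The largest difference in brain was that of ATP6V1B2, a subunit of the vacuolar proton pump, at 223 ± 48.4 FPKM in male brain, against 13.3 ± 1.62 in female brain (3.45 ± 0.46, adjusted p = 0.002). The membrane protein LAMP2 was lower in male brain (-2.49 ± 0.53). In gonad 3 lysosome features (5.56%) were higher in males and 8 (14.8%) in females, both below the 23.8% and 23.3% of all features, or 7 and 3 with recovered totals. The sterol carrier npc2 (-4.00 ± 0.49) was lower in male gonad, and the transcription factor TFEB higher (2.41 ± 0.67). Of 2 features of the protease ctsd, 1 was lower in male gonad (-5.91 ± 0.50) and the other did not pass (-0.35 ± 0.56, edgeR adjusted p = 0.63).

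No other MROH gene matched, so the last list held 10 features of other HEAT repeat proteins. In gonad 6 of the 10 were higher in males, against 23.8% of all features, 4 of them annotated as HEATR5A (2.30 to 2.70) with heatr5b (1.50 ± 0.43) and Heatr3 (1.45 ± 0.46). Of 2 features of the ribosome biogenesis factor heatr1, 1 was lower in male gonad (-2.64 ± 0.34) and the other did not pass (-0.45 ± 0.38). In brain 3 of the 10 were higher in males, against 18.4% of all features. All 3 were annotated as HEATR5A, whose features may be pieces of 1 gene. DNAAF5, a dynein arm assembly factor, was lower in male brain (-1.59 ± 0.45). In muscle the 4 HEATR5A features had negative differences (-1.72 to -0.94), and 0 of the 10 passed there or in liver. Over the average of brain, liver and muscle 0 of the 10 were higher in males and 1 in females, against 16.6% and 19.4% of all features. That count depends on scaling. With recovered totals 7 were higher in males and 0 in females, where 5966 and 1331 of all features passed.

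In liver edgeR called 0 of the 132 list features, with 15 under an unadjusted p of 0.05, while DESeq2 called 5 and limma 0. In liver 2.78% of all features passed, and the list count was 16 without female liver 2. In muscle 3 passed, and 0 without female muscle 2. In brain 38 passed (28.8%), below the 39.8% of all features, and 8, 17, 19 and 21 without female brain 1, female brain 2, male brain 1 and male brain 2. In gonad 57 passed (43.2%), below the 47.1% of all features, and 36 without male gonad 2. Over the average of brain, liver and muscle 29 were higher in males and 13 in females, against 16.6% and 19.4% of all features, or 75 and 4 with recovered totals. With those totals 5966 of all features passed toward males and 1331 toward females, in place of 2696 and 3160. In brain alone the split was 4332 and 1716, in place of 2996 and 3475, and in muscle 1982 and 109, in place of 285 and 196. That total of 42 was 22 without female brain 1, female liver 1 or male liver 2, 23 without female muscle 2, 26 without female brain 2 and 27 without male brain 2.

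A further feature, named BPI after its closest Swiss-Prot protein, had slmo2 as its closest nucleotide entry, and it was singled out by that entry after the table was read. It had 24.4 and 147 FPKM in male muscle, against 3.66 and 10.6 in female muscle, and 18.2 and 19.4 in male brain, against 15.5 and 17.7 in female brain. In these tissues the groups did not overlap, as was so, with males above, for 43.1% of all features in muscle and 48.7% in brain. Nothing is read from that. In liver it had 5.66 and 36.7 FPKM in males, against 29.5 and 27.2 in females, and in gonad 12.6 and 118 in males, against 21.7 and 43.5 in females, with overlap in both.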

How the data were processed

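RNA was extracted with Trizol and sequenced on an Illumina instrument, per the labels' protocols. Per the file headers, the authors' deposited table holds an estimated count and an FPKM per library for each assembled gene, with alignment scores, gene length and annotation. RSEM is named in the submitters' processing notes. Which assembler, aligner, versions and strand setting were used is not given in the sources used here, so antisense reads cannot be told apart. The 16 value columns of no listed sample were not used. Alignment scores are the authors', per the file headers.

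Expected counts were rounded and tested in edgeR 4.0.16 (R 4.3.3) by the quasi-likelihood F test with TMM scaling, 1 mean per group and 8 residual degrees of freedom, two-sided, with Benjamini-Hochberg adjustment over 16270 features and a threshold of 0.05. The SE is the log2 difference over the square root of F. Each feature reached 1 FPKM in at least 2 libraries, so none was removed. Log2 CPM used a prior count of 2. A library's total fragments were estimated from its counts and FPKM (9664791 to 16651319), and the table lists 51.4 to 80.5% of them. The alternatives were DESeq2 1.42.0, limma 3.58.1 on log2(FPKM + 1) and log2(FPKM + 0.1), other scaling, filters, a block, and libraries left out. The edgeR script was tested on simulated data.

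The members, lists and tests were chosen with earlier results of these data known. List genes were drawn from those that passed, up to 20 a comparison by size, and only some of these were named. The 5 named features with the highest r were named for each member. CRLS1, KIAA1033, ccdc53, heatr5b, Heatr3, COX19 in brain and SOCS3 for its gap were named after their values were seen. So was the Vps13a feature lower in male brain.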

Additional observations from a re-analysis of the deposited data

How the results depend on the processing

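The sex differences of MROH1 and of the 5396-base copy of SLMO2 kept their direction in each tissue under each alternative and with each library left out. In gonad, with 1 library left out, the log2 difference ran from 3.37 to 4.64 for MROH1, from 2.38 to 2.72 for the 5396-base copy and from -1.31 to -0.59 for the 1088-base copy, for which DESeq2 gave -1.06. The number of features past the threshold in gonad was 7661, and 4905 to 6050 with a gonad library left out. The number was 6471 in brain, and 1774 to 3484 with a library left out. It was 453 in liver, and 299 with recovered totals, 1686 by DESeq2, 200 and 203 by limma and 40 to 2764 with a library left out. It was 481 in muscle, and 2091, 1447, 1511 and 1397 under those settings and 37 to 410 with a library left out.

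The tissue differences leaned on scaling, and the values that follow are for recovered totals, limma on log2(FPKM + 1) and limma on log2(FPKM + 0.1), in that order. Gonad minus the other tissues was 0.62, 0.37 and 0.37 for MROH1 and 0.13, 0.15 and 0.28 for the 5396-base copy. Liver minus brain was 0.43, 0.19 and 0.24 for MROH1, -0.17, -0.12 and -0.23 for the 5396-base copy and -1.22, -1.14 and -1.33 for the 1088-base copy. Muscle minus brain was -0.55, -0.31 and -0.34 for MROH1 and -0.82, -0.69 and -0.83 for the 1088-base copy. Muscle minus liver was -0.50 and -0.57 for MROH1 under limma, where it did not pass. For the 5396-base copy, muscle minus brain ran from 0.02 to 1.34 over all settings other than a library left out. It was 1.34 with DESeq2's size factors and 1.34 by DESeq2. Recovered totals moved the median of all features in gonad minus the other tissues to 1.01 in place of -0.08, in muscle minus brain to -0.85 in place of -0.05, and in male minus female gonad to 0.72 in place of 0.02. The cause was not tested.

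With 1 library left out, gonad minus the other tissues ran from -0.85 to -0.21 for MROH1, from -1.13 to -0.70 for the 5396-base copy and from 0.70 to 1.06 for the 1088-base copy. Muscle minus liver ran from -1.21 to -0.83 for MROH1 and from -0.33 to 0.98 for the 5396-base copy. Muscle minus brain ran from 0.36 to 1.66 for the 5396-base copy and from -0.28 to 0.22 for the 1088-base copy. For the lists, features past the threshold ran from 8 to 21 in brain, 0 to 16 in liver, 0 to 4 in muscle, 36 to 50 in gonad and 22 to 60 over the 3 somatic tissues.

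The list count in liver was 1 with DESeq2's size factors, 5 by DESeq2, 1 with a mean of at least 50 counts and 2 with the replicate block. In muscle it was 21 with recovered totals, 11 by DESeq2, 12 and 13 by limma and 7 with the replicate block. Over the 3 somatic tissues it was 79 with recovered totals and 66 by limma with a pseudocount of 1. The filter filterByExpr removed no feature, and the minimum of 50 counts, chosen after seeing the data, kept 14730.

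The labels number the libraries 1 and 2 in each group. Between tissues of 1 sex, the difference of library 2 from library 1 correlated at 0.186 to 0.589 in males and at -0.314 to 0.228 in females, above 0.1 in 6 of 6 tissue pairs in males and 3 of 6 in females. Since this did not hold in both sexes, the numbers were not taken as pairs, and a pairing within males alone was not tested. With the replicate block (number within sex), muscle minus brain of the 1088-base copy was -0.00, the gonad differences were 4.05, 2.49 and -1.07, and no call on a member changed.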
